A study of Mus musculus with 6 samples.

Results

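The 48 genes described here belong to the transforming growth factor-beta (TGF-beta) superfamily pathway and were chosen by name from a list of ligands, receptors, antagonists, Smads and target genes. All 48 were matched to 1 gene each among the 55335 genes of the deposited table. The icKO nerves (n = 3 libraries) came from mice of the genotype RhoAfl/fl ChATCreERT2+, and the control nerves (n = 3 libraries) from RhoAfl/fl mice, so both groups carry floxed alleles of the small GTPase gene RhoA and the Cre transgene separates them. Polyadenylated RNA of whole sciatic nerve lysate was sequenced at postnatal day 14, in a study of RhoA in motoneurons after birth and its bearing on nerve myelin. ChAT-CreERT2 is an inducible Cre recombinase driven by the choline acetyltransferase gene and so is active in cholinergic neurons, whose cell bodies lie outside the nerve. The labels do not give the time of induction, whether control mice also received the inducing drug, the sex of the mice, or whether each library is a separate animal, and the p-values therefore speak only for the variation among the libraries at hand.

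TGF-beta ligands are secreted in a latent complex with a latent TGF-beta binding protein, and after release they bind a type II receptor that activates a type I receptor. Bone morphogenetic proteins (BMPs), growth and differentiation factors and activins signal through related receptors, and extracellular antagonists such as noggin, chordin and follistatin keep them from their receptors. Type I receptors phosphorylate receptor Smads, of which Smad2 and Smad3 serve TGF-beta and activin while Smad1, Smad5 and Smad9 serve BMPs, and these join Smad4 to regulate genes such as those of the Id proteins. Id proteins bind basic helix-loop-helix transcription factors and keep them from DNA, and in glial lineages they are known as restraints on differentiation. In developing nerve, TGF-beta is known to act on the proliferation and survival of Schwann cells, the glia that form peripheral myelin.

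Values are FPKM, fragment numbers scaled by transcript length and library size as deposited by the authors, a scale on which levels of different genes can be compared. Depth was estimated from the smallest steps of the values at about 17800000, 19000000 and 19500000 fragments in the icKO libraries, and at about 17200000, 20600000 and 20600000 fragments in the control libraries. Rhoa itself was at 34.4 ± 1.75 FPKM in icKO and 37.9 ± 1.24 FPKM in control nerves (SD, n = 3 each), without overlap but short of the threshold (limma, adjusted p = 0.195). Chat was listed at 0 in every library but control replicate 1, where it was at 0.0123 FPKM. With motoneuron cell bodies outside the nerve, neither gene checks the labels here. Xist, a transcript of females, was high in 1 library, control replicate 2 (46.1 FPKM), with at most 0.0282 FPKM elsewhere. Ddx3y, a transcript of males, was at 0 in control replicate 2 and at 12.5 to 16.1 FPKM elsewhere. The groups thus differed in sex make-up, and the part of sex in the results was not tested. Acvr2a, Bmp6, Bmpr1a and Id2 passed the threshold with all libraries and did not without control replicate 2. Skeletal muscle transcripts marked icKO replicate 3 and control replicate 1, as 12 muscle markers summed to 9.98, 23.3 and 1475 FPKM in icKO replicates 1, 2 and 3 and to 1247, 246 and 335 FPKM in the control replicates. Without these libraries together, Gdf10, Gdf11, Inhbb, Ski and Tgfbi passed the threshold, which they did not with all libraries. Tgfbr2, Bmp6, Bmpr1a, Acvr2a, Smad1, Smad4 and Id1 passed with all libraries and did not without these.

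The tissue label was checked against marker genes. The 11 Schwann cell markers summed to between 31185 and 35732 FPKM in icKO and between 29703 and 31666 FPKM in control libraries, far above any other list. All 8 adipocyte markers fell in icKO nerves, with sums of 80.03 to 139 FPKM against 430 to 533 FPKM in control nerves. Of 9 nerve fibroblast markers 4 fell and 1 rose, with sums of 776 to 799 FPKM in icKO and 927 to 1843 FPKM in control libraries, the lowest of the control values being that of replicate 1. Of 10 endothelial markers 3 fell and 1 rose, with sums of 98.6 to 115 FPKM in icKO and 123 to 127 FPKM in control libraries. Of 9 mural cell markers, 3 fell, with sums of 176 to 213 FPKM in icKO and 242 to 344 FPKM in control libraries. None of the 8 tested macrophage markers passed, with sums of 87.2 to 88.7 FPKM in icKO and 65.4 to 150 FPKM in control libraries, nor did any of the 3 tested perineurial markers, with sums of 103 to 121 FPKM in icKO and 109 to 112 FPKM in control libraries. No marker of these lists was at 0 in every library. Motoneuron markers summed to 0.0896 FPKM or less in each library, with Mnx1 at 0 in all of them. In bulk nerve, fewer cells of a type and less RNA per cell cannot be told apart, and the part that such shifts have in the results below was not tested.

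**Figure D1:**
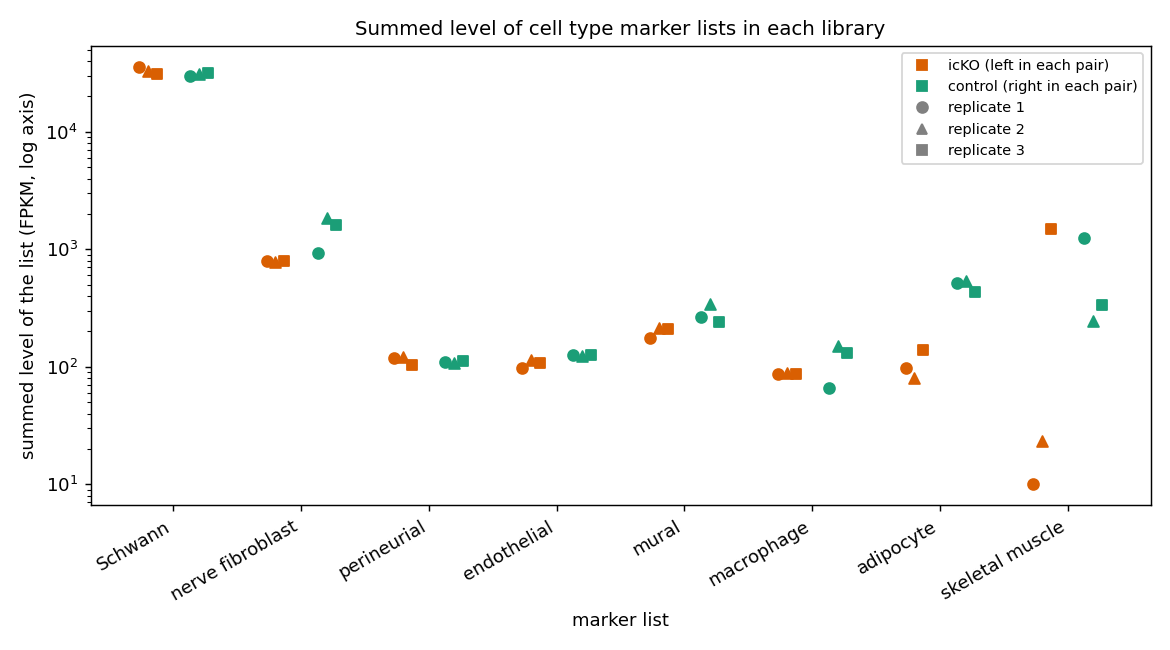
Summed FPKM of each marker list (vertical axis, logarithmic) in each library, with icKO libraries on the left and control libraries on the right of each pair, and symbols marking replicates 1 to 3. Adipocyte sums were 80.03 to 139 FPKM in icKO and 430 to 533 FPKM in control libraries, while skeletal muscle sums spread widely within both groups.

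Receptors for TGF-beta and the Id1 and Id2 targets were higher in icKO nerves, while Bmp7, Bmp5, Bmp6, the BMP receptor gene Acvrl1 and the secreted glycoprotein gene Fstl1 were lower. Of the 48 genes, 41 reached the mean of 1 FPKM over all libraries that was required for testing. Of these, 11 rose and 5 fell in icKO nerves at an adjusted p under 0.05 (limma on log2(FPKM + 1), with Benjamini-Hochberg adjustment over all 12860 tested genes, as for every adjusted p here). Calls were common in the whole transcriptome, where 42.9% of tested genes passed, 20.8% higher and 22.1% lower in icKO nerves. The members' 39.0% is close to that background, with 26.8% higher and 12.2% lower, and the share alone does not set these genes apart. Their median difference was -0.002 on the log2(FPKM + 1) scale against -0.01 for all tested genes, and the median absolute difference was 0.32 against 0.31. The icKO and control libraries did not overlap in 20 of the 41 members, where 57.2% of all tested genes showed the same. Only Bmp7, Fstl1 and Id2 were called with a difference of at least 1 on the log2 scale, which 7.6% of all tested genes reached.

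The counts depend on single libraries. Without control replicate 1, which was low in fibroblast and high in muscle transcripts, 6 members were higher and 9 lower in icKO nerves, and without control replicate 3 these counts were 5 and 3. Without icKO replicate 2, 9 were higher and 3 lower. Without control replicate 1 and icKO replicate 3 together, the muscle-rich libraries, 9 were lower and 5 higher. Over all tested genes, 4659 were called without icKO replicate 2, against 5516 with all libraries. Shares of all tested genes by direction were not computed for these fits, so the shifts cannot be read as particular to these members. Of the 16 called members, Tgfbr1, Tgfbr3, Chrd, Bmp7, Acvrl1 and Fstl1 passed under each of the alternatives tried in which they were tested, and no called member changed direction. With no filter on low genes, Ltbp4, Bmp5, Bmp6, Acvr2a and Id2 missed the threshold (adjusted p = 0.0826, 0.0526, 0.0568, 0.0682 and 0.0648). With the muscle level as a covariate, Ltbp4, Bmp6 and Bmpr1a missed it (adjusted p = 0.0939, 0.0622 and 0.0876) with log2 differences of 0.70, -0.35 and 0.23, close to the 0.74, -0.33 and 0.25 without the covariate, while Acvr1b, Gdf11 and Id3 passed (adjusted p = 0.0481, 0.0429 and 0.0164).

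**Figure D2:**
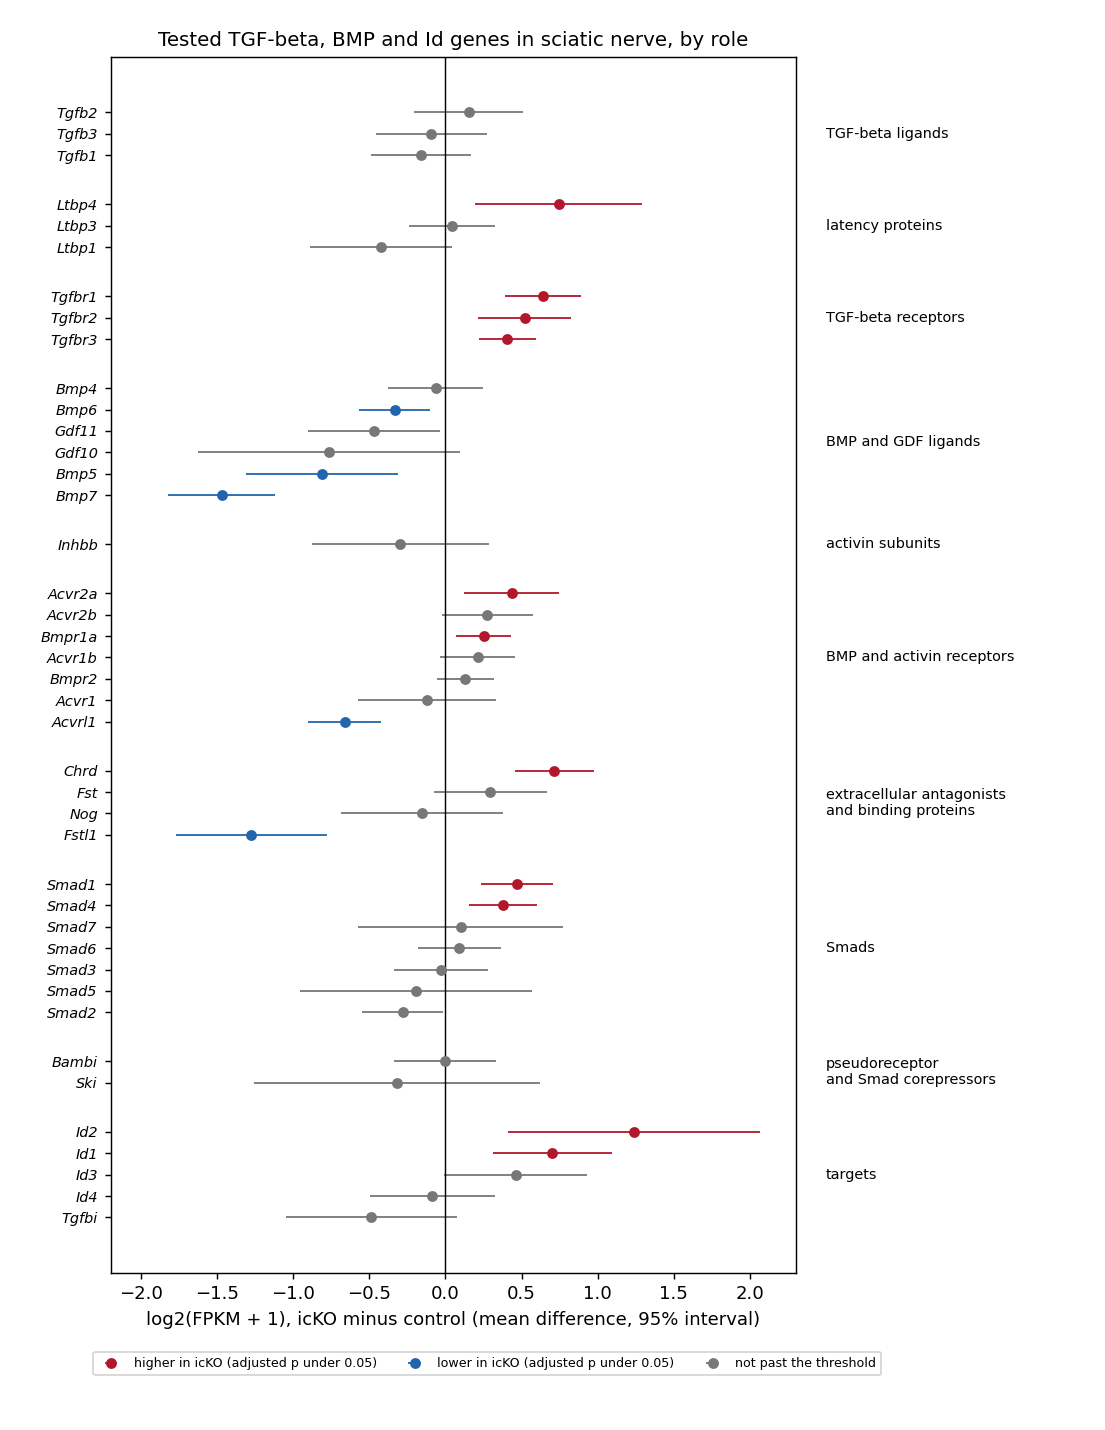
Difference between icKO and control nerves on the log2(FPKM + 1) scale (horizontal axis, positive when higher in icKO) for the 41 tested members grouped by role, with points for the estimate and lines for its 95% interval. All 3 TGF-beta receptors lie to the right of 0, the BMP and GDF ligands lie to the left, and Bmp7 has the lowest value at -1.47.

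The 3 TGF-beta ligand genes showed no difference that passed the test. Tgfb3 was the most abundant of them at 10.1, 9.29 and 10.1 FPKM in icKO libraries and 8.37, 13.3 and 10.5 FPKM in control libraries. Tgfb1 averaged 2.40 ± 0.22 FPKM in icKO and 2.83 ± 0.64 FPKM in control nerves (SD, n = 3 each). Tgfb2 was at 0.89, 1.20 and 1.36 FPKM in icKO libraries and 0.72, 1.29 and 0.82 FPKM in control libraries. The icKO and control libraries overlapped for each of these ligands. The 95% intervals of the log2 difference were -0.49 to 0.16 for Tgfb1, -0.21 to 0.51 for Tgfb2 and -0.46 to 0.27 for Tgfb3, so differences of moderate size in either direction are within the error.

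Among the genes of the latent TGF-beta binding protein family, Ltbp4 was the most abundant and the one that rose. It was at 39.0, 42.5 and 45.3 FPKM in icKO libraries and at 16.8, 32.8 and 27.5 FPKM in control libraries. The groups did not overlap, but the control libraries spread widely and replicate 1 was lowest. The log2 difference was 0.74 (SE 0.23, limma adjusted p = 0.0384). It fell short of the threshold without icKO replicate 1, 2 or 3 or without control replicate 3 (adjusted p = 0.0742, 0.0926, 0.0894 and 0.0692), and it was 0.47 without control replicate 1 (adjusted p = 0.0293) and 0.42 without the muscle-rich libraries (adjusted p = 0.0488). Ltbp3 averaged 10.8 ± 1.29 FPKM in icKO and 10.5 ± 1.28 FPKM in control nerves (SD, n = 3 each). Its 95% interval was -0.24 to 0.33 on the log2 scale. Ltbp1 was at 3.20, 3.22 and 3.68 FPKM in icKO and at 3.60, 6.94 and 4.46 FPKM in control libraries, and it passed only when control replicate 1 was left out, with a log2 difference of -0.59 (limma adjusted p = 0.0444). Ltbp2 was too low to test, at 0.13 to 0.20 FPKM in icKO and 0.59 to 0.70 FPKM in control libraries, without overlap.

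All 3 TGF-beta receptor genes rose. Tgfbr1, the type I receptor kinase, was at 9.86, 8.95 and 9.75 FPKM in icKO libraries and at 4.91, 6.08 and 6.32 FPKM in control libraries. Every icKO library lay above every control library, with a log2 difference of 0.64 (SE 0.10, limma adjusted p = 0.00397). Tgfbr2, the type II receptor that binds ligand first, was at 32.9, 43.5 and 42.5 FPKM in icKO and 25.0, 29.3 and 27.2 FPKM in control libraries. Its libraries also did not overlap, and the difference was 0.52 (SE 0.13, adjusted p = 0.0175 by limma). It did not pass without control replicate 1 or control replicate 3 (adjusted p = 0.0548 and 0.0555), nor without the muscle-rich libraries (adjusted p = 0.0967). Tgfbr3, or betaglycan, a co-receptor that presents ligand to Tgfbr2, was at 36.3, 35.03 and 37.6 FPKM in icKO and 25.8, 28.7 and 27.0 FPKM in control libraries, without overlap. The difference was 0.41 (SE 0.08, adjusted p = 0.00705 by limma), the smallest of the receptors in size and the one with the least spread within groups. Summed over the receptors, the level was 85.5 ± 5.69 FPKM in icKO and 60.1 ± 4.22 FPKM in control nerves (SD, n = 3 each).

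The RefSeq promoters of Tgfbr1 and Tgfbr2, as 2 receptor genes that rose, are shown as the bases before the annotated start (build GRCm38.p6, which differs from the build of the expression table). Capitals mark GGCGCC, the core of a GC-rich element that BMP-activated Smads are known to bind.
Tgfbr1 (chr4:47352972-47353221, plus strand): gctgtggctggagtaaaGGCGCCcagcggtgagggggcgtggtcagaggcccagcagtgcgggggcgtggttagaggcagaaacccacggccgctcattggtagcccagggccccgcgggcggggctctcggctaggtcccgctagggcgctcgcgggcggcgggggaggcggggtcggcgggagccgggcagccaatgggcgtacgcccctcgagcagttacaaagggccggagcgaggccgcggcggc
Tgfbr2 (chr9:116175364-116175613, minus strand): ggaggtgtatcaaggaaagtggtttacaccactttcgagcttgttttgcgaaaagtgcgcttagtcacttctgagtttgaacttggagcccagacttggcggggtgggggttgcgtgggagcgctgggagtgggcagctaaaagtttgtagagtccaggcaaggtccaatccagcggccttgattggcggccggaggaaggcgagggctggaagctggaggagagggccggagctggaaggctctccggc
Tgfbr1 has a second annotated start, not shown. The shown Tgfbr1 promoter holds the motif once, and that of Tgfbr2 does not hold these letters.

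**Figure D3:**
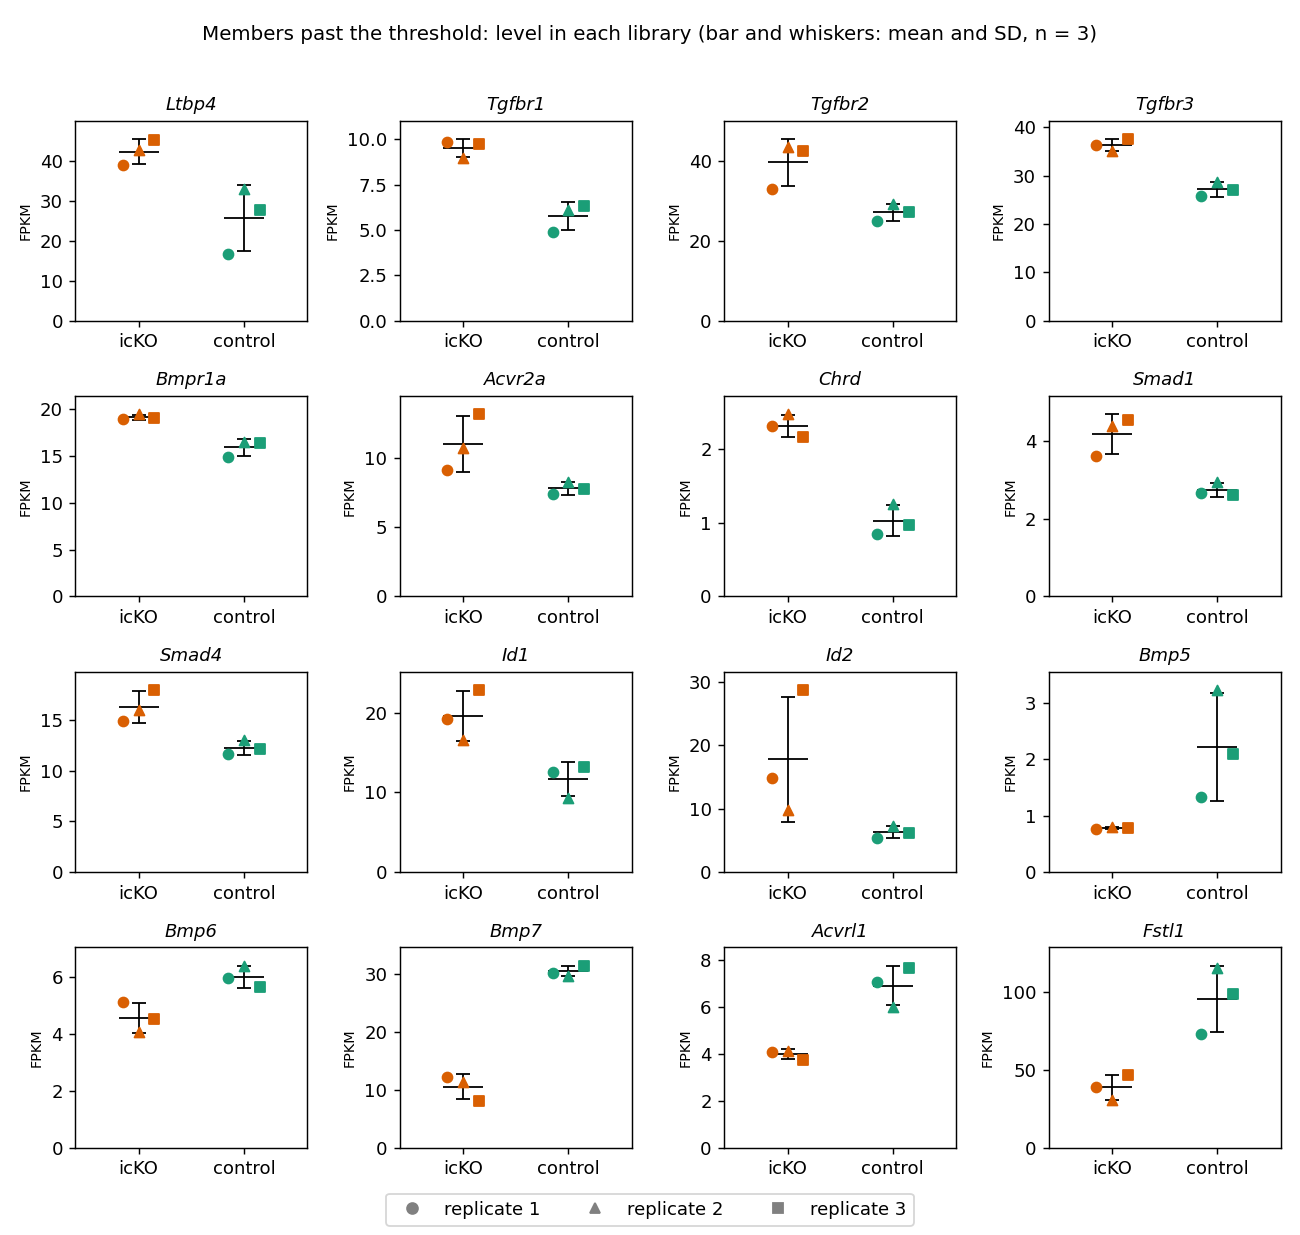
Level in FPKM (vertical axes, from 0) of the 16 members past the threshold in the icKO (left) and control (right) libraries, with symbols for replicates and a bar with whiskers for the mean and SD. The libraries of the groups do not overlap in any panel, but the panels were picked by the threshold on these same libraries. Of all tested genes, 57.2% showed no overlap. Id2 has its widest spread within the icKO group, 9.74 to 28.7 FPKM.

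BMP and growth and differentiation factor (GDF) ligand genes were lower in icKO nerves where they passed. Bmp7 was the most abundant of them, and with all libraries it had the lowest log2 difference of the 41 tested members. Without icKO replicate 3 that of Fstl1 was lower, at -1.41 against -1.30 for Bmp7. Bmp7 was at 12.2, 11.3 and 8.04 FPKM in icKO libraries and at 30.2, 29.8 and 31.5 FPKM in control libraries. The control libraries were nearly equal, and every icKO library was far below them. The icKO mean was 0.345 times the control mean, and the log2 difference was -1.47 (SE 0.15, limma adjusted p = 0.000888).

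Bmp5 was a low transcript, at 0.77, 0.80 and 0.79 FPKM in icKO and 1.33, 3.23 and 2.10 FPKM in control libraries. The icKO libraries were almost equal and all lay below the control libraries, which differed widely from each other. The log2 difference was -0.81 (SE 0.21, limma adjusted p = 0.021), or -1.31 with a pseudocount of 0.1. It did not pass without icKO replicate 1, icKO replicate 2 or control replicate 3 (adjusted p = 0.0584, 0.0551 and 0.0605). Bmp6 was at 5.11, 4.07 and 4.53 FPKM in icKO and 5.98, 6.40 and 5.65 FPKM in control libraries, again without overlap. Its difference of -0.33 (SE 0.10, adjusted p = 0.0307 by limma) held when icKO replicate 1 was left out and for no other library. Without icKO replicates 2 and 3 and control replicates 1, 2 and 3 in turn, the adjusted p was 0.0727, 0.0602, 0.072, 0.108 and 0.0625. Bmp6 shares 224 exonic bases with Txndc5 on the opposite strand in the GENCODE M21 annotation. Txndc5 averaged 21.7 FPKM in icKO and 27.9 FPKM in control nerves, and since the handling of strand is not stated, reads of the pair may be mixed.

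The other ligands of this group did not pass. Bmp4 averaged 1.79 ± 0.35 FPKM in icKO and 1.91 ± 0.29 FPKM in control nerves. Gdf10 was at 0.65, 0.87 and 1.93 FPKM in icKO and 1.09, 3.81 and 3.43 FPKM in control libraries, and Gdf11 at 1.69, 1.47 and 1.22 FPKM in icKO and 1.59, 2.77 and 2.99 FPKM in control libraries. In both of these genes control replicate 1 was the control library within the icKO range. Without control replicate 1 both passed, with log2 differences of -1.15 and -0.66 (limma adjusted p = 0.0197 and 0.0113). Bmp2 was below the filter at 0.34 to 0.75 FPKM in icKO and 0.36 to 1.04 FPKM in control libraries. The summed level of the 7 ligand genes was 20.8 ± 1.64 FPKM in icKO and 46.6 ± 3.74 FPKM in control nerves (SD, n = 3 each). Of these means, Bmp7 made up 10.5 FPKM in icKO and 30.5 FPKM in control nerves. Of the activin subunits, Inhbb was at 0.71, 0.66 and 0.97 FPKM in icKO and 0.53, 1.26 and 2.01 FPKM in control libraries. It passed without control replicate 1, with a log2 difference of -0.55 (adjusted p = 0.0489 by limma). Inhba was not tested, at 0.02 to 0.33 FPKM in icKO and 0.33 to 1.08 FPKM in control libraries, and overlapped by a narrow margin.

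Receptors of BMPs and activins moved in both directions. Acvrl1, or ALK1, a type I receptor best known in endothelium, was at 4.09, 4.13 and 3.75 FPKM in icKO libraries and at 7.06, 6.01 and 7.69 FPKM in control libraries. The groups did not overlap, and the log2 difference was -0.66 (SE 0.10, limma adjusted p = 0.00321). Eng, which encodes the co-receptor endoglin and was not among the 48, fell to 10.3 ± 0.40 FPKM in icKO nerves, against 14.0 ± 1.09 FPKM in control nerves (SD, n = 3 each, log2 difference -0.41, adjusted p = 0.0094 by limma). Among the endothelial markers, Kdr, Tie1 and Cldn5 also fell, Pecam1 rose and 6 did not pass. The part of endothelial RNA in the fall of Acvrl1 was not tested.

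Bmpr1a, a type I BMP receptor, was at 18.9, 19.4 and 19.1 FPKM in icKO and 14.9, 16.5 and 16.4 FPKM in control libraries. Every icKO library was above every control library, but the difference was small, 0.25 on the log2 scale (SE 0.08, limma adjusted p = 0.0342). Leaving out any 1 library ended the call (adjusted p = 0.0657, 0.0668 and 0.0529 without icKO replicates 1, 2 and 3, and 0.102, 0.0776 and 0.0825 without control replicates 1, 2 and 3). Acvr2a, a type II receptor for activins, was at 9.12, 10.7 and 13.1 FPKM in icKO and 7.38, 8.28 and 7.74 FPKM in control libraries. The groups did not overlap, with a log2 difference of 0.43 (SE 0.13, adjusted p = 0.0349 by limma) that was 0.27 without the muscle-rich libraries (adjusted p = 0.114). It did not pass without icKO replicate 2 or 3 (adjusted p = 0.0748 and 0.0528) or without control replicate 1, 2 or 3 (adjusted p = 0.0945, 0.0686 and 0.0952). Acvr2a shares 446 exonic bases with Orc4 on the opposite strand, and Orc4 averaged 3.09 FPKM in icKO and 3.35 FPKM in control nerves.

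The remaining receptors did not pass. Bmpr2, the type II BMP receptor, averaged 7.40 ± 0.50 FPKM in icKO and 6.67 ± 0.22 FPKM in control nerves, and Acvr1b, a type I activin receptor, 8.17 ± 1.13 FPKM in icKO and 6.88 ± 0.18 FPKM in control nerves (SD, n = 3 each). In both genes the libraries did not overlap. Acvr1, another type I receptor, was at 3.38 ± 0.86 FPKM in icKO and 3.76 ± 0.87 FPKM in control nerves. Acvr2b, the other type II activin receptor, was at 1.98, 2.11 and 1.43 FPKM in icKO and 1.38, 1.46 and 1.17 FPKM in control libraries, and passed without icKO replicate 3, with a log2 difference of 0.38 (limma adjusted p = 0.0325). Bmpr1b was below the filter at 0.17 to 0.24 FPKM in icKO and 0.29 to 0.34 FPKM in control libraries.

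The extracellular antagonists and binding proteins held the most abundant member and a large contrast. Fstl1, which encodes a secreted follistatin-like glycoprotein known to bind BMPs and made by fibroblasts, was at 38.9, 30.9 and 46.7 FPKM in icKO libraries and at 73.1, 115 and 98.8 FPKM in control libraries. The groups were far apart, with an icKO mean at 0.406 times the control mean and a log2 difference of -1.27 (SE 0.21, limma adjusted p = 0.00401). In the nerve fibroblast list Lum, Col1a1, Dpt and Cd34 fell as well, Pdgfra rose and 4 markers did not pass. The part of fibroblast RNA in the fall of Fstl1 was not tested. Without control replicate 1 and icKO replicate 3 the difference of Fstl1 was -1.59 (adjusted p = 0.0049 by limma).

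Chrd, which encodes the BMP antagonist chordin, moved the other way. It was at 2.31, 2.46 and 2.16 FPKM in icKO libraries and at 0.85, 1.26 and 0.96 FPKM in control libraries. Every icKO library was above every control library, and the icKO mean was 2.26 times the control mean. The log2 difference was 0.71 (SE 0.11, limma adjusted p = 0.00321), or 1.12 with a pseudocount of 0.1. Fst, the gene of the activin antagonist follistatin, averaged 4.21 ± 1.02 FPKM in icKO and 3.21 ± 0.41 FPKM in control nerves, and Nog, the gene of noggin, 0.93 ± 0.07 FPKM in icKO and 1.21 ± 0.69 FPKM in control nerves (SD, n = 3 each). Neither passed, and the libraries overlapped in both. Grem1, the gene of the BMP antagonist gremlin, was listed at 0 in all 6 libraries.

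The promoters of Chrd, which rose, and Fstl1, which fell, are set side by side as the bases before the RefSeq start (build GRCm38.p6), with GGCGCC in capitals.
Chrd (chr16:20732877-20733126, plus strand): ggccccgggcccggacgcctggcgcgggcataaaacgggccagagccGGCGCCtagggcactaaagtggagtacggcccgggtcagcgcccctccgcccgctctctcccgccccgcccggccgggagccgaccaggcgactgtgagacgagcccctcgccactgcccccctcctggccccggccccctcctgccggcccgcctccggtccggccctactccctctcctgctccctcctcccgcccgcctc
Fstl1 (chr16:37776805-37777054, plus strand): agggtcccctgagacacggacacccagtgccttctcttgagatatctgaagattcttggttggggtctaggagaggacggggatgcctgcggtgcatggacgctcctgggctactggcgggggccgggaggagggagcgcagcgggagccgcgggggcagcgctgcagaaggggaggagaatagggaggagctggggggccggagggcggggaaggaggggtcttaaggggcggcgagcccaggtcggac
GGCGCC occurs once in that of Chrd, and these letters are not in that of Fstl1.

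Of the Smads, the gene of the BMP receptor Smad Smad1 and that of the shared partner Smad4 rose and none fell. Smad1 was at 3.61, 4.39 and 4.56 FPKM in icKO libraries and at 2.67, 2.94 and 2.61 FPKM in control libraries, without overlap. The log2 difference was 0.47 (SE 0.10, limma adjusted p = 0.0105), and 0.40 without the muscle-rich libraries (adjusted p = 0.0591). Smad4 was the most abundant Smad, at 14.9, 16.0 and 18.0 FPKM in icKO and 11.7, 13.0 and 12.1 FPKM in control libraries. Its libraries did not overlap, and the difference was 0.38 (SE 0.09, adjusted p = 0.0173 by limma). Without control replicate 1 or 3 the adjusted p was 0.055 and 0.0623, and without the muscle-rich libraries it was 0.0719.

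Smad2 was lower in every icKO library, at 2.60, 3.08 and 3.60 FPKM, than in the control libraries, at 3.88, 3.72 and 4.27 FPKM. The difference of -0.28 (SE 0.11) missed the threshold (limma adjusted p = 0.0831), and it passed without icKO replicate 3, at -0.37 (adjusted p = 0.0338). Smad3, the other TGF-beta receptor Smad, averaged 4.19 ± 0.23 FPKM in icKO and 4.34 ± 0.85 FPKM in control nerves (SD, n = 3 each), with a 95% interval of -0.34 to 0.28 on the log2 scale. Smad5 was at 12.9, 4.75 and 11.4 FPKM in icKO and 9.43, 11.1 and 10.8 FPKM in control libraries, so a single low icKO library, replicate 2, set its spread. The inhibitory Smads did not pass. Smad6 averaged 1.86 ± 0.32 FPKM in icKO and 1.67 ± 0.16 FPKM in control nerves, and Smad7 was at 1.28, 0.81 and 2.96 FPKM in icKO and 1.08, 1.64 and 1.42 FPKM in control libraries, with icKO replicate 3 highest. Smad9 was below the filter at 0.36 to 0.47 FPKM in icKO and 0.33 to 0.42 FPKM in control libraries.

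Bambi, a pseudoreceptor without a kinase domain, overlapped between the groups, at 1.02, 1.39 and 1.06 FPKM in icKO and 0.83, 1.25 and 1.43 FPKM in control libraries, and did not pass. Ski encodes a corepressor that binds Smads and is known in mice to be needed by Schwann cells for myelination. It was at 19.1, 19.5 and 56.3 FPKM in icKO libraries and at 34.0, 37.6 and 32.8 FPKM in control libraries. Replicates 1 and 2 of icKO lay below all control libraries and icKO replicate 3 lay above them. With all libraries the log2 difference was -0.32 (SE 0.39, limma adjusted p = 0.545), and without icKO replicate 3 it was -0.82 (adjusted p = 0.00258). Ski also passed, lower in icKO nerves, without both muscle-rich libraries. With the mean level of muscle markers as a covariate the log2 difference was 0.16 (adjusted p = 0.556). The library of icKO replicate 3 was also the one richest in muscle transcripts, with a muscle marker sum of 1475 FPKM. Control replicate 1 had a sum of 1247 FPKM, and its Ski level of 34.0 FPKM lay between those of the other control libraries. The part of muscle RNA in the level of Ski was not tested. The related corepressor gene Skil was below the filter, at 0.34 to 1.04 FPKM in icKO and 0.42 to 1.07 FPKM in control libraries.

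Among target genes, Id1 and Id2 rose, and Id3 and Id4 did not pass. Id1 was at 19.2, 16.6 and 22.8 FPKM in icKO libraries and at 12.5, 9.23 and 13.2 FPKM in control libraries. The groups did not overlap, with a log2 difference of 0.70 (SE 0.16, limma adjusted p = 0.0147), which was 0.64 without the muscle-rich libraries (adjusted p = 0.0513). Id2 was at 14.8, 9.74 and 28.7 FPKM in icKO and at 5.39, 7.28 and 6.20 FPKM in control libraries. Its icKO mean was 2.82 times the control mean, with icKO replicate 3 far above the others and replicate 2 nearest the control range. The difference of 1.24 (SE 0.35, adjusted p = 0.0273 by limma) was 0.84 without icKO replicate 3 (adjusted p = 0.0197) and 0.75 without the muscle-rich libraries (adjusted p = 0.0458). It did not pass without icKO replicate 1 or without control replicate 1, 2 or 3 (adjusted p = 0.0628, 0.0761, 0.0538 and 0.0733).

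Id3, the most abundant Id gene, was at 34.3, 27.8 and 49.8 FPKM in icKO libraries and at 26.3, 26.1 and 25.8 FPKM in control libraries. All icKO libraries were above the control libraries, which were nearly equal, but replicate 2 was above by a small margin and replicate 3 by a wide one. The log2 difference of 0.46 (SE 0.20) missed the threshold (limma adjusted p = 0.101). It passed without icKO replicate 2, at 0.65 (adjusted p = 0.0292), and with the muscle covariate, at 0.67 (adjusted p = 0.0164). Id4 was at 3.59, 4.29 and 6.30 FPKM in icKO and 4.53, 5.21 and 5.17 FPKM in control libraries, with overlap and a 95% interval of -0.50 to 0.33 on the log2 scale. In each of the 4 Id genes, icKO replicate 3 held the highest value.

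Tgfbi, a matrix protein gene named for its induction by TGF-beta, was at 37.3, 43.2 and 34.98 FPKM in icKO libraries and at 36.7, 69.7 and 61.9 FPKM in control libraries. Control replicate 1 lay among the icKO libraries while the other control libraries were above them all. The difference of -0.49 (SE 0.23) did not pass (limma adjusted p = 0.137), and it was -0.76 without control replicate 1 (adjusted p = 0.00838). Control replicate 1 had the lowest fibroblast marker sum of its group, 927 FPKM, and the part of fibroblast RNA in the level of Tgfbi was not tested.

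**Figure D4:**
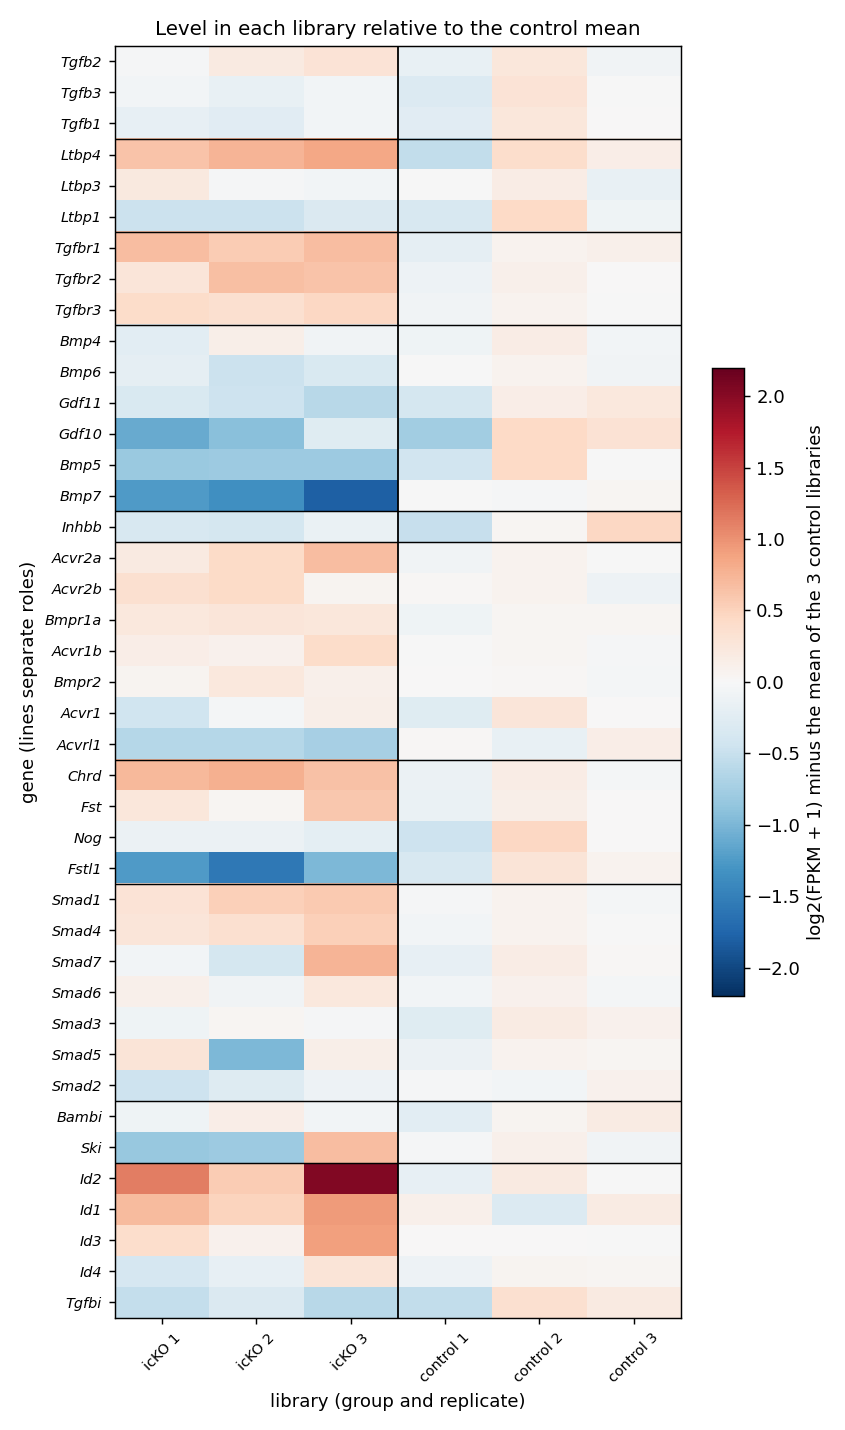
Level of each tested member in each library as log2(FPKM + 1) minus the mean of the 3 control libraries (color), with icKO libraries in the left columns, control libraries in the right columns and lines between roles. Bmp7 and Fstl1 are low in every icKO library, the TGF-beta receptors are high in every icKO library, and icKO replicate 3 stands apart from the other icKO libraries for Ski, Smad7 and Id2.

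The promoters of the Id genes in the RefSeq table (build GRCm38.p6) are shown because Id2 rose, Id3 was above control in every icKO library without passing, and Id4 overlapped. Capitals again mark GGCGCC.
Id2 (chr12:25096093-25096342, minus strand): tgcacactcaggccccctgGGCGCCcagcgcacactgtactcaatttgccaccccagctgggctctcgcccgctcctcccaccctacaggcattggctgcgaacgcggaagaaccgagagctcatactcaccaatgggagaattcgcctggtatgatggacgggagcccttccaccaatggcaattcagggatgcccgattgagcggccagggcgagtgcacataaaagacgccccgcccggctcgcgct
Id3 (chr4:136143572-136143821, plus strand): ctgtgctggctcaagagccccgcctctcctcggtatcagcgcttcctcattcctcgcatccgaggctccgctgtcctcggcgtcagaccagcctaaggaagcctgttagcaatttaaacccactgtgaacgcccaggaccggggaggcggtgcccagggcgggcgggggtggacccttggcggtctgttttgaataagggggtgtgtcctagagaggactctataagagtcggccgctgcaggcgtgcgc
Id4 (chr13:48260866-48261115, plus strand): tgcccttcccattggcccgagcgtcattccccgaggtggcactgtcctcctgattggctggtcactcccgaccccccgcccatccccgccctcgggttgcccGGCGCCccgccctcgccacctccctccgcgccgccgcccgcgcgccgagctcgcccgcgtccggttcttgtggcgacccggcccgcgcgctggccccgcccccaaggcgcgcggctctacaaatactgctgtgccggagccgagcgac
Id2 and Id4 hold the motif once each, and these letters are not in the shown promoter of Id3. RefSeq promoters were matched for 35 of the 48 members, with 43 annotated starts, and the 250 bases before each start were searched on both strands. GGCGCC, its own reverse complement, was in 13 of these 43 (30.2%) and in 9.59% of all 32851 promoters of the table. The motif is made of G and C alone. Among promoters with at least 60% G and C it was in 13 of 32 of the members' and in 26.1% of all. CAGACA, or TGTCTG on the other strand, which contains the Smad box AGAC, was in 5 of the 43 (11.6%) and in 17.1% of all promoters. The palindromic Smad site GTCTAGAC was in none of the 43 and in 0.167% of all. None of these motifs contains another, and a match is a description of the letters only.

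Other genes, not all of them components of the pathway, came from a list of 62. The list was written with earlier results of these data known, and 61 of its genes were matched and 42 tested. In icKO nerves 9 rose and 9 fell, which is 42.9% of those tested and equal to the share of all tested genes. Tsc22d3 and Ccn2 rose by more than 1 on the log2 scale, as did Gdf1. Tsc22d3, a leucine zipper gene best known as induced by glucocorticoids, was at 187, 207 and 130 FPKM in icKO and 60.7, 32.0 and 47.3 FPKM in control libraries (log2 difference 1.90, SE 0.27, limma adjusted p = 0.00244). Ccn2, a matricellular protein gene known as a target of TGF-beta and of YAP, was at 27.5, 16.1 and 24.3 FPKM in icKO and 9.99, 7.86 and 7.29 FPKM in control libraries (1.31, SE 0.21, adjusted p = 0.00363 by limma). Both genes were higher in every icKO library. Gdf1 averaged 21.1 ± 7.07 FPKM in icKO and 6.39 ± 0.64 FPKM in control nerves (SD, n = 3 each, log2 difference 1.53, adjusted p = 0.00371 by limma), but it shares 1349 exonic bases with Cers1 on the same strand. Cers1 was also higher, at 7.97 ± 3.51 FPKM in icKO and 2.34 ± 0.33 FPKM in control nerves (SD, n = 3 each, log2 difference 1.36, adjusted p = 0.00748 by limma), so both the level and the direction of Gdf1 are uncertain.

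Itgav and Chrdl1 fell by more than 1. Itgav, the integrin alpha subunit of receptors that release latent TGF-beta, was at 3.12, 3.11 and 3.98 FPKM in icKO and 15.3, 14.7 and 12.8 FPKM in control libraries (log2 difference -1.80, SE 0.11, limma adjusted p = 0.000364). Chrdl1, which encodes the BMP antagonist chordin-like protein, was at 3.87, 5.24 and 3.43 FPKM in icKO and 14.3, 15.1 and 16.1 FPKM in control libraries (-1.66, SE 0.14, adjusted p = 0.000614 by limma). Chrd and Chrdl1 thus had opposite signs.

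**Figure D5:**
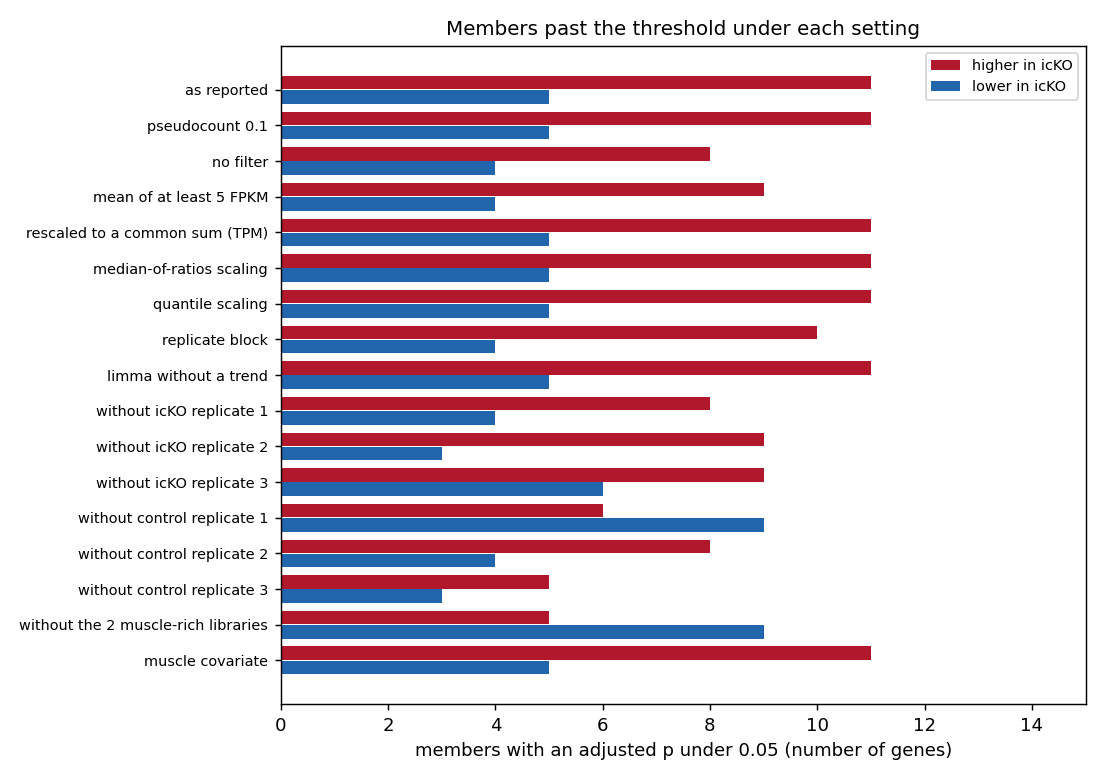
Number of members past an adjusted p of 0.05 (horizontal axis) under each setting, with bars for those higher and those lower in icKO nerves. The counts were 11 and 5 as reported, 6 and 9 without control replicate 1, and 5 and 3 without control replicate 3.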

How the data were processed

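The 6 sciatic nerve libraries comprised 3 icKO and 3 control samples. FPKM values per gene were deposited by the authors, and the build GRCm39, StringTie 1.3.1c, STAR and FastQC 0.11.2 are named in the submitters' processing notes, as is DESeq2 1.16.1. How strand was handled is not given in the sources used here. Because FPKM values are no counts, limma 3.58.1 in R 4.3.3 was fitted to log2(FPKM + 1), with a variance trend and equal weights, wherever the mean over all libraries reached 1 FPKM. Its two-sided p-values were adjusted by Benjamini-Hochberg over all 12860 tested genes, with 0.05 as the threshold for a call. Depth was estimated from the smallest steps of single-transcript genes and is approximate. Exonic overlaps came from GENCODE M21 and promoters from RefSeq, both on GRCm38 and used for names and sequence only. Members and lists were chosen with earlier results of these data known. Values in every library are given for called members and for those averaging at least 20 FPKM. Genes of the other list, of 62, are named when called with a log2 difference of at least 1. Eng, outside this rule, was named after its values were seen. Alternatives varied the pseudocount, filter, scaling, trend, replicate block, muscle covariate and libraries.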

Additional observations from a re-analysis of the deposited data

How the results depend on the processing

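The count of all called genes was 5516. It was 3308 when a mean of at least 5 FPKM was required, a filter under which fewer genes are tested. Under that filter 9 members were higher and 4 lower, and every called member that was still tested kept its call. Leaving out 1 library at a time gave 3750 to 5458 called genes, 5 to 9 members higher and 3 to 9 members lower in icKO nerves. Without the 2 muscle-rich libraries 5 members were higher and 9 lower. Scaling, pseudocount, trend and covariate alternatives each left the counts at 11 and 5, and no filter gave 8 and 4. Same-numbered icKO and control libraries did not deviate together (correlations -0.10, 0.04 and -0.05), so the numbers were not taken as pairs. The replicate block gave 4596 genes, 10 members higher and 4 lower. None of the 16 called members changed sign under the 16 alternatives, and 10 of them lost their call in at least 1. Of the 25 uncalled members, 10 passed in at least 1, and 12 changed sign in at least 1 without passing. These sign changes, as log2 differences, were 0.0049 with a pseudocount of 0.1, 0.00962 with median-of-ratios and 0.0613 with quantile scaling for Bambi, -0.0121 for Smad6 and -0.31 for Smad7 without the muscle-rich libraries, and -0.0214 for Ltbp3, 0.16 for Ski and 0.086 for Id4 with the muscle covariate. Over the fits that left out a library, the range was -0.26 to 0.0399 for Acvr1, -0.12 to 0.0848 for Bambi, -0.16 to 0.0219 for Bmp4, -0.27 to 0.0599 for Id4, -0.0464 to 0.12 for Ltbp3, -0.38 to 0.0732 for Nog, -0.16 to 0.064 for Smad3, -0.43 to 0.20 for Smad5, -0.22 to 0.35 for Smad7 and -0.24 to 0.0581 for Tgfb3. The cause was not tested. With 3 libraries a group and FPKM in place of counts, the counting error of low genes such as Bmp5 is not modelled.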
